A study of Mus musculus with 9 samples.

Results

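The nuclear genes of oxidative phosphorylation were followed in growing mouse oocytes that carried 2 X chromosomes (XX), a single X chromosome (XO), or an X and a Y chromosome (XY). The members were the genes on chromosomes 1 to 19 whose symbols name a subunit of complex I (Nduf), complex II (Sdh), complex III (Uqcr), complex IV (Cox4 to Cox8) or ATP synthase, complex V (Atp5). The names matched 81 genes, and 3 of them, Ndufa1, Ndufb11 and Cox7b, lie on the X chromosome and were set aside. The remaining 78 members were among 28051 genes of the series, with 34 in complex I, 4 in complex II, 8 in complex III, 16 in complex IV and 16 in complex V. The rule uses names and chromosomes and no measured value, but it was set with earlier results of these data known. A few symbols follow the pattern without naming a fixed subunit of the complex they are filed under, since Ndufa4 is now placed with complex IV, Cox7a2l acts in joining complexes III and IV, and Atp5s is a factor associated with ATP synthase.

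All 9 samples were pools of oocytes from C57BL/6 females at 18 days after birth, with 3 pools for each genotype. A pool held 30 oocytes freed with collagenase and trypsin, 10 of them 50 to 55 μm and 20 of them 55 to 60 μm wide, which places them in the growth phase. XY females and their XX sisters were sired by B6.Y TIR males, which carry a Y chromosome from Tirano mice on the B6 background, and the XY daughters form ovaries despite that Y chromosome. XO females were sired by other males, carriers of the Paf mutation on their X chromosome, which had been crossed from C3H/HeSnJ to B6 for fewer generations, so the cross and the XO karyotype cannot be told apart in any comparison with XO.

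Oxidative phosphorylation is the last step of respiration. Complexes I and II feed electrons from NADH and succinate into ubiquinone, complex III passes them to cytochrome c, complex IV hands them to oxygen, and complexes I, III and IV pump protons whose return through complex V drives ATP synthesis. All complexes but complex II combine subunits encoded in the nucleus with subunits encoded in the mitochondrial genome. The growing oocyte relies on its mitochondria for ATP, takes up pyruvate that follicle cells supply, and stores mitochondria and messenger RNA for the embryo.

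Promoters of these genes are known for binding sites of NRF1, of the ETS factor GABPA and of YY1. Windows from 250 bases before to 50 bases after the annotated start (RefSeq, GRCm38.p6) were on hand for 62 members, in 67 windows, and were searched on both strands for the letters GCGCATGC (NRF1), CCGGAAG (ETS), AANATGGC (YY1), GGGCGG (Sp1), CCAAT and TATAAA. Shown are the windows of Uqcrh, the most abundant member in XX oocytes, of Sdhd, Ndufb4 and Atp5o, 3 of the 4 members with the smallest p-values in both comparisons with XO oocytes, and of Atp5k, one of 5 member windows that held both NRF1 and ETS letters. Capitals mark NRF1, ETS, Sp1 and CCAAT letters on either strand. All 5 genes lie on the minus strand, and the sequences are given 5′ to 3′ along the gene at chr4:116075021-116075320, chr9:50603800-50604099, chr5:108434350-108434649, chr16:37654319-37654618 and chr16:91931581-91931880, in the order printed.
Uqcrh: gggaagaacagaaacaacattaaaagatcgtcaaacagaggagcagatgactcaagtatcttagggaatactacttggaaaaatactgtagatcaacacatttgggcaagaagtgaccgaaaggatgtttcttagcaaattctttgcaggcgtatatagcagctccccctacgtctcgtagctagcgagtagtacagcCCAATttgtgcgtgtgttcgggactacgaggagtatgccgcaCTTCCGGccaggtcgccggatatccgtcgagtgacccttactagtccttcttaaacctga
Sdhd: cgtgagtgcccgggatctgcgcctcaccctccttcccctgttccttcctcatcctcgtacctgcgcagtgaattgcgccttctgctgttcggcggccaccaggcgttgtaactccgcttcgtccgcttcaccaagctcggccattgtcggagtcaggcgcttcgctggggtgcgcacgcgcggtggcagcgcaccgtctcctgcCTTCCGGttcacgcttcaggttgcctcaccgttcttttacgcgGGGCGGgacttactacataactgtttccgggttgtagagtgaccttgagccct
Atp5k: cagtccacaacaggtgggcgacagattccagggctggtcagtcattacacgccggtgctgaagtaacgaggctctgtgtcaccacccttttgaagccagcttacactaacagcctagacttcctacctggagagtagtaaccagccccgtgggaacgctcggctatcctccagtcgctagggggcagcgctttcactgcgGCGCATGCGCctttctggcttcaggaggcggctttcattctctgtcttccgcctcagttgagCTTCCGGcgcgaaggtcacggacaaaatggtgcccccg
Ndufb4: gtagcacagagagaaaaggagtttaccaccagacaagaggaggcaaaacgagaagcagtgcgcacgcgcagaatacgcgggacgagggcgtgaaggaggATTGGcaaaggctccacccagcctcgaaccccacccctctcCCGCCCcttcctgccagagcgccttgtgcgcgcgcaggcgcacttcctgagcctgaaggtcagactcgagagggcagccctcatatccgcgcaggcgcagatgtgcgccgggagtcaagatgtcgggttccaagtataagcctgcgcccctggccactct
Atp5o: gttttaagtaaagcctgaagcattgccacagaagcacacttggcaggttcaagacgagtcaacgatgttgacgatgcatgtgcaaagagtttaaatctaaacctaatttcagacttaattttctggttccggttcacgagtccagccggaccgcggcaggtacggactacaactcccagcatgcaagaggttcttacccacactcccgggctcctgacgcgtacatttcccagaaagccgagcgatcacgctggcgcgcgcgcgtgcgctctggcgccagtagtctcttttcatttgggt
In the Uqcrh window a CCAAT box began 52 bases before the start and ETS letters 10 bases before it. The Sdhd window held ETS letters from 46 bases and Sp1 letters from 3 bases before the start, and the Ndufb4 window CCAAT letters from 151 and Sp1 letters from 110 bases before it. In Atp5k the NRF1 letters occurred on both strands, overlapping, from 50 bases before the start, and ETS letters lay 13 bases into the transcript. The Atp5o window held none of the capitalised motifs, and that of Cox7c, the fourth of those 4 members, held none of the 6 motifs searched. Over the 67 member windows, NRF1 letters were present in 14.9% against 2.71% of 32851 promoter windows in the table, ETS letters in 23.9% against 8.86%, and YY1 letters in 20.9% against 6.05%. The shares were close for Sp1 (38.8% against 35.7%) and CCAAT letters (41.8% against 37.4%), and 10.4% against 13.6% for TATAAA. Overlaps between motifs were counted for each motif. These matches describe letters in a window and say nothing of binding.

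Libraries were made by Smart-seq3, in which molecules are tagged and counted at their 5′ ends. A count of these tags (UMIs) does not grow with transcript length. How well the 5′ ends of each gene were captured was not measured, so levels of different genes can be compared only roughly. The pools held 2130145 to 3157338 gene UMIs, and 5299 to 18809 of them fell on members, 0.230% to 0.596% of the gene UMIs. Levels below are the deposited normalized CPM, UMIs scaled by 1 constant per pool. The authors built it from the pool total and a factor from ERCC spike-in RNA, so levels are not amounts relative to the summed spike-ins. In this unit 1 UMI equalled 0.302 to 0.565 normalized CPM. The 12 oocyte markers were all detected and summed to 18040 to 54715 normalized CPM. The lowest sum was in XO replicate 1 and the highest in XO replicate 3. In edgeR 5 of them (Gdf9, Zp1, Nobox, Ooep and Padi6) were lower in both XX and XY than in XO oocytes at an unadjusted p below 0.05. That is 41.7% in each comparison, against 16.7% (XX) and 8.24% (XY) of all genes, and 0 markers passed adjustment. The paper, with its own model, reports no Gdf9 difference between the genotypes in these RNA-Seq data. By qRT-PCR it found only minor Gdf9 differences, in smaller oocytes. The cause of this disagreement over Gdf9 was not tested. Of 13 granulosa markers 9 were listed, and their sum lay between 59.2 and 130.4. Fst, Amhr2 and Inha were at 0 to 0.65, and the markers that carried the sum are not named here. The count filter kept 4 granulosa markers. For XX against XO, 1 had its higher level in XX and 1 in XO at an unadjusted p below 0.05 in edgeR. That is 50% of the 4, against 18.1% of all genes, and 0 passed adjustment. For XX against XY and XY against XO, 0 of the 4 reached that threshold. In the theca and stroma list 6 of 10 markers summed to 2.13 to 8.55, and 4 of 11 markers of blood, immune and endothelial cells to 16.1 to 133.8. The sum of this last list was 16.1, 109.6 and 133.8 in XO and 27.0, 33.2 and 59.2 in XY replicates 1 to 3, and the granulosa sum was highest in XO replicate 3 (130.4) and XY replicate 3 (121.0). The part of any of these in the members' differences was not tested, and in such pools fewer transcribing oocytes and less RNA per oocyte cannot be told apart. XO replicate 1 stood apart from XO replicates 2 and 3 in most member genes, and the number of members called without it is given for both comparisons with XO.

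The members spanned a wide range of levels in XX oocytes. Every member had at least 1 UMI in at least 1 pool, and 59 had a UMI in all 9. In XX oocytes 8 members reached a mean of 100 normalized CPM, 26 lay between 10 and 100, 25 between 1 and 10, and 19 below 1. The 4 most abundant members, Uqcrh, Atp5h, Cox7a2 and Uqcrc2, together made up 54.6% of the summed level of all 78 in XX oocytes, and the first 11 made up 80.5%.

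**Figure D1:**
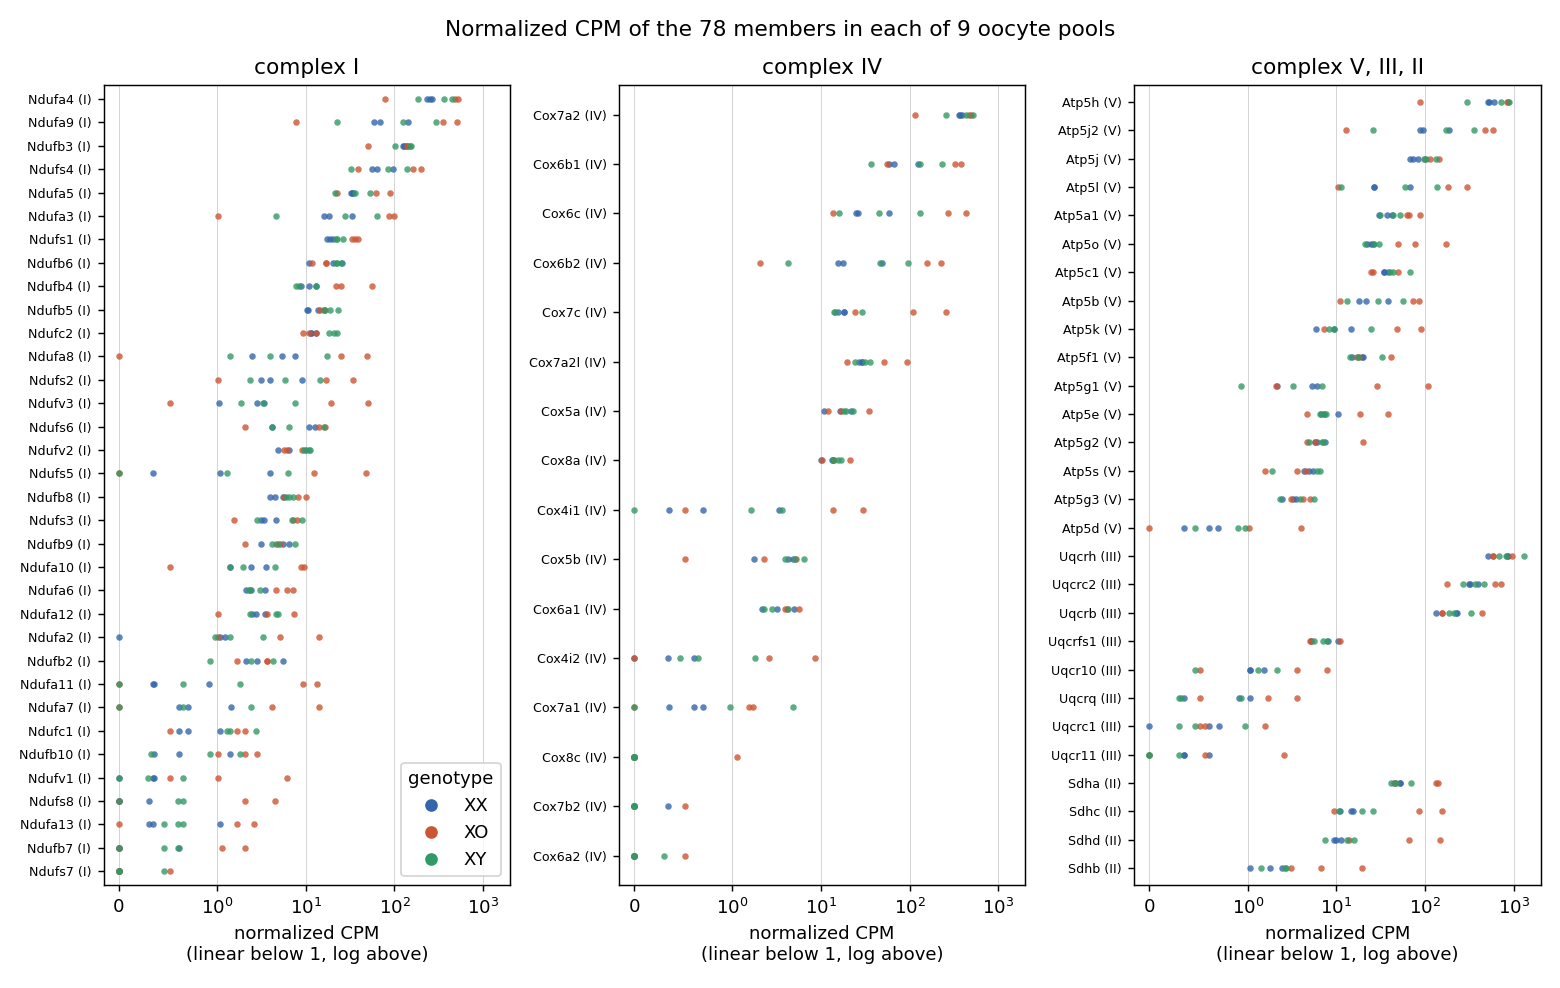
Normalized CPM of all 78 members in each of the 9 oocyte pools, one row per member grouped by complex and ordered by the mean over the pools. Points are single pools coloured by genotype, and the axis is linear below 1 and logarithmic above. Of the 56 tested members 35 were highest of the 9 pools in XO replicate 3 (62.5%, against 39.8% of all genes). In XO replicate 1, 27 were lowest (48.2%, against 26.7%).

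Complex III held the most abundant member and some of the scarcest. Uqcrh, the acidic hinge subunit that holds cytochrome c1, was measured at 839, 854 and 510.3 normalized CPM in XX replicates 1 to 3, 959, 575 and 585 in XO and 1296, 816 and 686 in XY. Its mean in XX oocytes was 735 ± 194 (SD, n = 3), 20.1% of the summed level of the members. Uqcrc2, a core subunit, had means of 340.0 ± 43.6 (XX), 499 ± 283 (XO) and 367 ± 98.7 (XY). Uqcrc1, its partner in the core, had 14 UMIs over the 9 pools and a mean of 0.441 ± 0.385 in XX oocytes. Uqcrfs1, the Rieske iron-sulfur protein, had the lowest mean of the 4 tested members of complex III, 7.85 ± 2.58 in XX oocytes.

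In complex I the 2 highest means over the 9 pools were those of Ndufa4, at 251 ± 13.8 in XX oocytes, and of Ndufa9, an accessory subunit near the ubiquinone site, at 89.9 ± 44.4. The 7 core subunits that carry the flavin and iron-sulfur clusters reached at most 18.9 in XX oocytes, for Ndufs1, with a median of 3.71, and the 27 accessory subunits had a median of 4.65. Ndufa12 had the lowest mean over the 9 pools of the tested members of complex I, with 2.91 ± 0.525 in XX oocytes. Ndufs7, which holds the last iron-sulfur cluster of the chain, had no UMI in XX oocytes, which allows a level of up to 0.335 at 3 UMIs over the 3 XX pools, and 2 UMIs in all. Differences in members this scarce were not detectable at this depth.

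Complex V had the highest median level, 21.2 normalized CPM in XX oocytes, and 15 of its 16 members were abundant enough to be tested. Atp5h, subunit d of the peripheral stalk, averaged 543 ± 45.1 in XX oocytes, and Atp5j2, subunit f of the membrane part, averaged 123 ± 55.0. The catalytic F1 head was far lower, with Atp5a1 at 36.7 ± 6.14 and Atp5b at 26.0 ± 10.6 in XX oocytes. Atp5g1, Atp5g2 and Atp5g3, which encode the same mature c-ring subunit, averaged 4.49 ± 2.08, 6.40 ± 0.837 and 3.05 ± 0.549. In XO oocytes Atp5g1 spread from 2.07 in replicate 1 to 109 in replicate 3.

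Complex IV has several subunits with tissue-specific forms. Cox7a2, the widely expressed form, averaged 373 ± 16.0 in XX oocytes against 0.555 ± 0.178 for the muscle form Cox7a1. Cox6b1 averaged 82.3 ± 35.7 and Cox6b2, known as the testis form, 27.1 ± 18.5, and in XO replicate 3 they reached 377 and 226. Cox6b2 transcripts were thus present in each of the 9 pools, from 2.07 upward. Cox4i1, the usual form of a central nuclear subunit, averaged only 1.47 ± 1.64 in XX oocytes, and Cox4i2 0.320 ± 0.306. Cox6a1, the tested member of the complex with the lowest mean over the 9 pools, averaged 3.42 ± 1.45 in XX oocytes, with 2 UMIs in all pools for its heart and muscle form Cox6a2. Cox8a averaged 12.3 ± 1.95 and Cox8c had 2 UMIs, both in XO replicate 3.

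The first comparison asked how loss of an X chromosome goes with member transcripts. Scaled to the summed spike-ins, 0 members were called, and the median log2 fold change, XX minus XO, was 0.015 (0.42 over all genes). With the authors' scaling, the pool total times a spike-in factor, every member that passed the test was lower in XX than in XO oocytes. The paper, with its own model of these RNA-Seq data, describes the opposite direction for autosomal genes at large. It reports many of them at lower levels in XO than in XX or XY oocytes. The cause of this disagreement was not tested. Of the 56 members that passed the count filter, 16 (28.6%) were lower in XX at an unadjusted p below 0.05 in edgeR's quasi-likelihood test and 0 were higher, read against 16.7% and 1.4% of all 10993 genes tested. The median log2 fold change of the 56 members, XX minus XO, was -0.85, against -0.46 over all genes tested. The calls covered 5 of 23 tested members of complex I, all 3 of complex II, 0 of 4 of complex III, 3 of 11 of complex IV and 5 of 15 of complex V. In 10 of 56 members (17.9%) every XO pool lay above every XX pool, against 13.6% of all genes tested, and in 0 members the reverse held (2.79% of all genes). The other 22 members were below the filter and had no test.

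All 3 tested genes of complex II, succinate dehydrogenase, the enzyme shared with the citric acid cycle, were lower in XX than in XO oocytes. Sdhd, a membrane anchor (ENSMUSG00000000171.5, chromosome 9, 50596357 to 50603812, GRCm38), was measured at 9.26, 9.80 and 11.3 normalized CPM in XX replicates 1 to 3, 14.0, 65.7 and 147 in XO and 13.0, 7.49 and 15.7 in XY. XO replicates 2 and 3 were far above all other pools, and XO replicate 1 still lay above the 3 XX pools. Sdhd was 7.44-fold lower in XX than in XO oocytes (log2 fold change -2.89 ± 0.70 (SE), unadjusted p of 0.00226, adjusted p = 0.203, edgeR). Sdhc, the other membrane anchor, was measured at 11.0, 14.7 and 15.2 normalized CPM in XX replicates 1 to 3, 9.32, 85.8 and 155 in XO and 10.7, 19.2 and 25.7 in XY. Here XO replicate 1 lay below the XX pools, and the log2 fold change was -2.60 ± 0.78 (SE, unadjusted p of 0.00812, adjusted p = 0.203, edgeR). Sdha, the catalytic flavoprotein, was measured at 52.0, 44.1 and 51.8 normalized CPM in XX replicates 1 to 3, 46.1, 131 and 141 in XO and 40.9, 46.9 and 69.7 in XY, with a log2 fold change of -1.10 ± 0.42, and its call was lost in 5 of the 9 fits that left out 1 pool. Sdhb, the iron-sulfur subunit, was below the filter at 1.76 ± 0.694 in XX and 9.67 ± 8.44 in XO oocytes.

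In complex V, Atp5o, the stalk protein that confers oligomycin sensitivity, had the smallest p of all members. Its level was 26.0, 22.1 and 24.4 normalized CPM in XX replicates 1 to 3, 49.7, 76.0 and 173 in XO and 30.2, 20.8 and 26.3 in XY, so that every XO pool exceeded the 6 others. Atp5o was 4.11-fold lower in XX than in XO oocytes (log2 fold change -2.04 ± 0.44 (SE), unadjusted p of 0.00104, adjusted p = 0.203, edgeR), and its estimate ran from -2.36 to -1.38 when 1 pool was left out. The interval the matrix gives for Atp5o (ENSMUSG00000022956.10, chromosome 16, 91684398 to 91931687) spans the neighbour Donson, with which it shares an exon in Gencode vM21, and Donson itself was at 18.6 to 49.2 normalized CPM with a log2 fold change of -0.32 ± 0.37 (SE). Atp5a1, the alpha subunit of the F1 head, was measured at 42.7, 36.8 and 30.5 normalized CPM in XX replicates 1 to 3, 66.3, 62.6 and 86.9 in XO and 43.7, 30.9 and 52.5 in XY. Its 3 XO pools were close to each other and above every XX pool, and it was 1.96-fold lower in XX oocytes (log2 fold change -0.97 ± 0.30 (SE), unadjusted p of 0.00865, adjusted p = 0.203, edgeR). Atp5g1, Atp5k and Atp5j were also called, with log2 fold changes of -3.35, -2.26 and -0.67, and each lost its call in at least 2 fits that left out 1 pool.

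**Figure D2:**
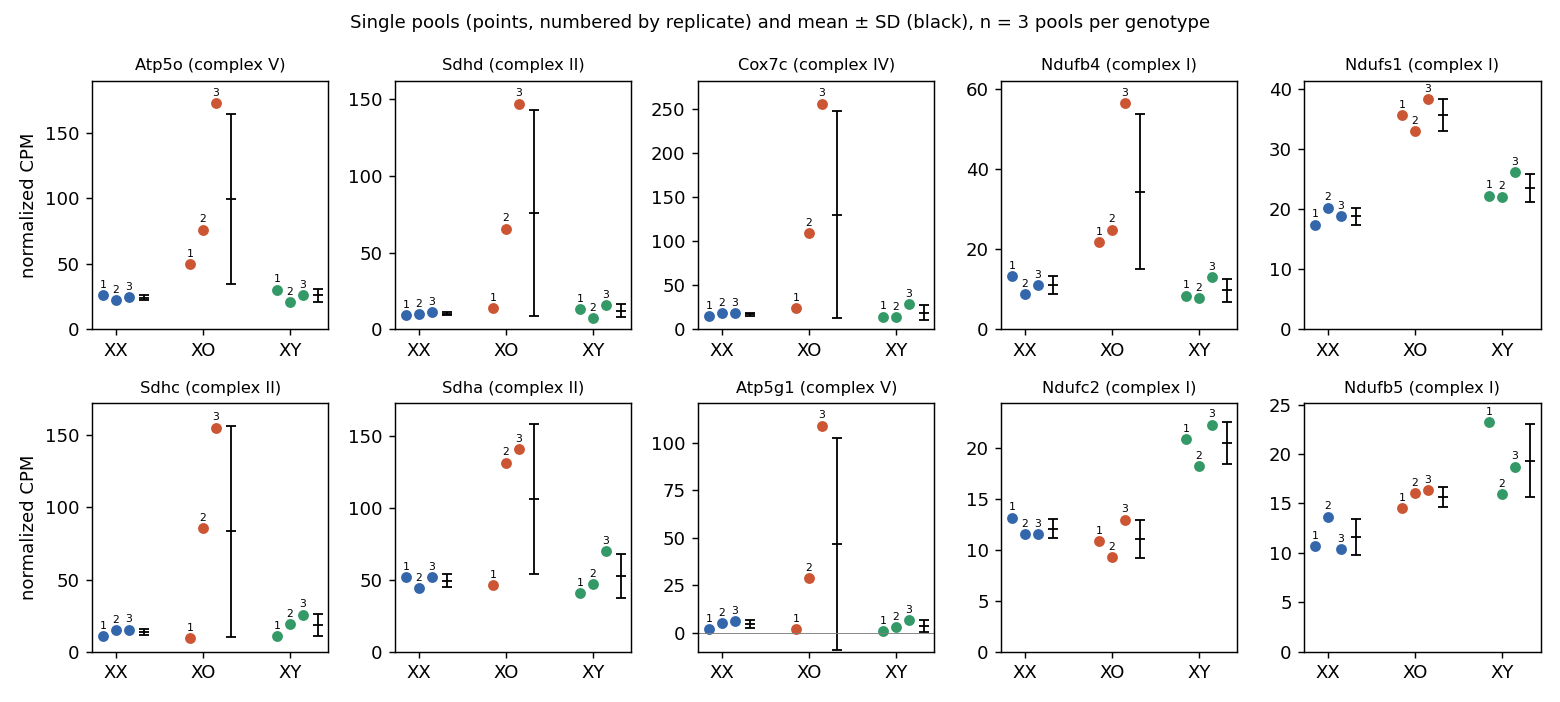
Normalized CPM of 10 members in single pools (points, numbered by replicate) with the mean ± SD (black bars, n = 3 pools per genotype), on linear axes. XO replicate 3 is the highest point for 8 of the 10 members, and the 3 XX pools lie close together.

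In complex IV, Cox7c, a small nuclear subunit, was called with the smallest p of that complex. It was measured at 15.3, 18.2 and 18.3 normalized CPM in XX replicates 1 to 3, 24.3, 109.6 and 256 in XO and 14.4, 14.0 and 28.7 in XY, and all 3 XO pools lay above the XX pools. Cox7c was 7.51-fold lower in XX than in XO oocytes (log2 fold change -2.91 ± 0.71 (SE), unadjusted p of 0.00240, adjusted p = 0.203, edgeR). Cox4i1 and Cox6c had log2 fold changes of -3.20 ± 1.22 and -2.71 ± 1.08, and XO replicate 1 lay below the XX mean for both. XO replicate 1 held 1 UMI of Cox4i1, at 0.518 normalized CPM.

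In complex I, Ndufs1, the largest core subunit, had pools that lay close together within each genotype. It was measured at 17.5, 20.3 and 18.9 normalized CPM in XX replicates 1 to 3, 35.7, 33.1 and 38.4 in XO and 22.3, 22.1 and 26.3 in XY. The 3 genotypes did not overlap, with XX lowest and XO highest. Ndufs1 was 1.89-fold lower in XX than in XO oocytes (log2 fold change -0.92 ± 0.24 (SE), unadjusted p of 0.00368, adjusted p = 0.203, edgeR). The accessory subunit Ndufb4 was measured at 13.2, 8.75 and 11.0 normalized CPM in XX replicates 1 to 3, 21.7, 24.8 and 56.5 in XO and 8.37, 7.81 and 13.0 in XY and had a log2 fold change of -1.64 ± 0.43 (unadjusted p of 0.00344, adjusted p = 0.203, edgeR). Ndufa6 was 2.22-fold lower in XX, from 6.04 ± 1.31 in XO to 2.69 ± 0.717 in XX oocytes. The lowest log2 fold changes among the members, all called, were those of Ndufs5 (-3.41 ± 1.45), Atp5g1 (-3.35 ± 1.11) and Ndufv3 (-3.22 ± 1.09), with standard errors above 1 on the log2 scale. At the other end, Atp5s, Cox5b and Ndufb9 had log2 fold changes of 0.60 ± 0.55, 0.45 ± 0.68 and 0.35 ± 0.48, none of which passed the test.

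After Benjamini-Hochberg adjustment over all genes tested, 0 members and 0 of all genes passed in edgeR, against 16 members at an unadjusted p below 0.05. In DESeq2 with the same scaling 7 members passed (Atp5o, Cox7c, Sdhd, Ndufs1, Ndufb4, Sdhc and Atp5g1), and the share of all genes passing there is not given here. The 7 members with the smallest p, Atp5o, Sdhd, Cox7c, Ndufb4, Ndufs1, Sdhc and Atp5a1, kept an unadjusted p below 0.05 in edgeR whichever pool was left out. The other 9 each lost it in at least 2 such fits, 8 of them without XO replicate 3 and Ndufa6 without XO replicate 1, XX replicate 1 or XX replicate 3. Without XO replicate 1 the number of members called lower in XX was 35 of 60 (34.2% of all genes called lower and 2.77% higher, at an unadjusted p). Of these members 30 had an adjusted p below 0.05 in edgeR, and the share of all genes at that threshold is not given here. The number called was 8 of 57 without XO replicate 3 (7.95% and 1.36%) and 10 of 60 without XX replicate 1, the latter with no share of all genes beside it. TMM factors of the genes moved the median of all genes from -0.46 to -0.03 and that of the members to -0.34, with 9 members lower (6.02% of all genes) and 1, Ndufc2, higher (5.9%) in XX, and scaling to the summed spike-ins left 0 called. In the values from which the authors had regressed batch effects, 5 of the 16 calls changed direction, 5 kept the direction without a call and 6 stayed called lower. In limma those values gave 27 members higher (36.3% of all genes) and 6 lower (7.78%) in XX, the 6 being Sdhd, Cox7c, Atp5o, Ndufb4, Atp5a1 and Ndufs1.

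**Figure D3:**
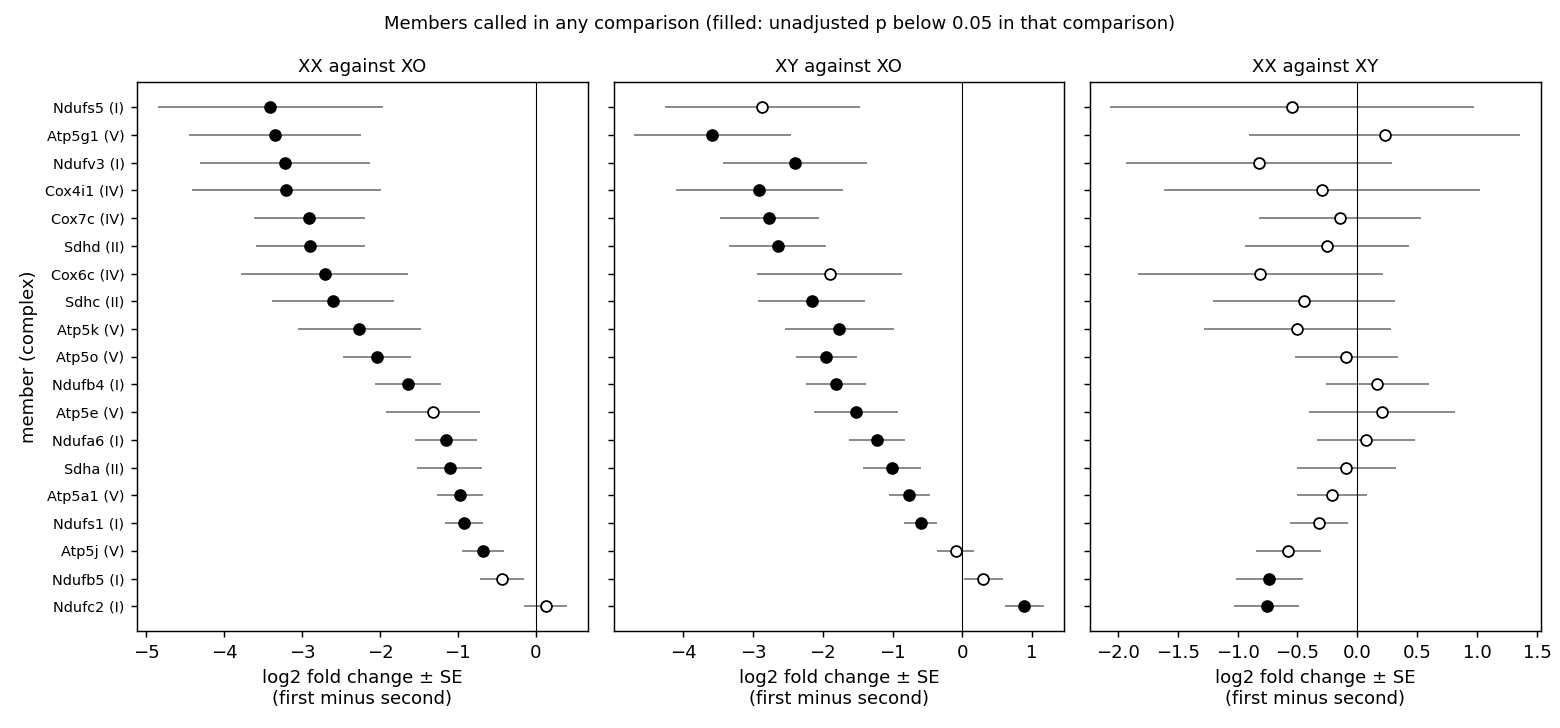
Log2 fold changes with their standard errors for the 19 members called in any comparison, in 3 panels that share the row order. Filled points have an unadjusted p below 0.05 in that comparison, in edgeR's quasi-likelihood test over the 9 pools. Nearly all filled points lie left of 0 in the comparisons with XO oocytes, the exception being Ndufc2, and 2 members are filled in XX against XY.

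The second comparison set XY against XO oocytes, which both have a single X chromosome. In XY oocytes 14 of 56 members were lower and 1 was higher at an unadjusted p below 0.05, against 8.24% and 1.69% of all genes tested (9.93% in either direction), and the median log2 fold change, XY minus XO, was -0.65 against -0.30 over all genes. The paper, with its own model, describes the opposite direction here too, with far more autosomal genes higher than lower in XY oocytes. This comparison shares the 3 XO pools with the one before, and 13 members were called in both. Atp5o again had the smallest p, at 3.86-fold lower in XY oocytes (log2 fold change -1.95 ± 0.44 (SE), unadjusted p of 0.00140, adjusted p = 0.485, edgeR). Ndufb4 was 3.50-fold lower (unadjusted p of 0.00198, adjusted p = 0.485, edgeR), Cox7c 6.79-fold and Sdhd 6.25-fold. Sdhc and Sdha had log2 fold changes of -2.16 ± 0.77 and -1.01 ± 0.42, so the 3 tested members of complex II were called here too. The lowest estimates were those of Atp5g1 (-3.58 ± 1.12) and Cox4i1 (-2.91 ± 1.19), which were called, and of Ndufs5 (-2.86 ± 1.39), which was not. Atp5e, the epsilon subunit of the F1 head, was called in this comparison at -1.52, with 7.07 ± 0.526 in XY and 20.6 ± 16.9 in XO oocytes.

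Ndufc2, an accessory subunit of the membrane arm of complex I, was the 1 member that was higher in XY oocytes. It was measured at 13.2, 11.6 and 11.6 normalized CPM in XX replicates 1 to 3, 10.9, 9.31 and 13.0 in XO and 20.9, 18.2 and 22.3 in XY. The 3 XY pools lay above all 6 others, while the XX and XO pools overlapped. Ndufc2 was 1.85-fold higher in XY than in XO oocytes (log2 fold change 0.89 ± 0.27 (SE), unadjusted p of 0.00942, adjusted p = 0.485, edgeR), and its call held whichever pool was left out. Cox5b and Atp5s also had estimates among the 3 highest, 0.94 ± 0.67 and 0.60 ± 0.55, without passing the test. In 3 of the 56, Ndufb6, Ndufc2 and Ndufv2, all XY pools lay above all XO pools (5.36%, against 3.88% of all genes), and in 5, Ndufs1, Ndufb4, Ndufa6, Atp5a1 and Atp5o, all XO pools lay above all XY pools (8.93%, against 6.34%).

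After adjustment 0 members passed in edgeR (0.0364% of all genes), against 15 before it. In DESeq2 with the same scaling 4 passed (Atp5o, Cox7c, Sdhd and Ndufb4), and the share of all genes there is not given here. The number called was 33 of 60 without XO replicate 1 (31 lower and 2 higher, against 27.6% and 4.53% of all genes) and 6 of 57 without XO replicate 3 (5 lower and 1 higher, against 2.35% and 1.39%). It was 8 of 60 without XY replicate 1 and 7 of 59 without XY replicate 2, with no share of all genes beside these counts. Atp5o, Ndufb4, Cox7c, Sdhd and Ndufc2 were called in each of these fits, whereas 9 of the other 10 lost the call without XO replicate 3 and Ndufa6 without XY replicate 2. TMM factors of the genes gave 7 lower (3.68% of all genes) and 3 higher (5.39%) in XY oocytes with the median of all genes at -0.02, and the batch-regressed values gave 5 lower (Cox7c, Atp5o, Ndufb4, Sdhd and Ndufa6, against 6.02% of all genes) and 30 higher (38.0%) in limma.

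The third comparison, XX against XY oocytes, pairs sisters from the same cross. Few members differed. Ndufc2 was 1.69-fold lower in XX than in XY oocytes (log2 fold change -0.76 ± 0.27 (SE), unadjusted p of 0.0187, adjusted p = 0.691, edgeR), and Ndufb5, another accessory subunit of complex I, was 1.66-fold lower (log2 fold change -0.73 ± 0.28 (SE), unadjusted p of 0.0261, adjusted p = 0.744, edgeR). Those 2 of 56 members (3.57%) were the calls, against 4.39% of all genes called lower, 1.41% called higher and 5.8% called in either direction. Ndufb5 was measured at 10.7, 13.7 and 10.4 normalized CPM in XX replicates 1 to 3, 14.5, 16.0 and 16.4 in XO and 23.2, 16.0 and 18.7 in XY, and all XY pools exceeded all XX pools. The median log2 fold change of the members was -0.30, against -0.19 over all genes, and 0 passed adjustment in edgeR (0.0819% of all genes) or in DESeq2 with the same scaling, where 3 were called before adjustment. The lowest estimates, for Cox6b2, Ndufv3 and Cox6c, were -0.83 ± 1.25, -0.82 ± 1.11 and -0.81 ± 1.02, and the highest, for Atp5g1, Atp5e and Uqcrfs1, were 0.23 ± 1.13, 0.21 ± 0.61 and 0.21 ± 0.42, none past the threshold. All 3 XY pools lay above all 3 XX pools for 7 of 56 members (12.5%, against 11.7% of all genes), and the reverse held for 0 (4.15%). The number called fell to 0 without XX replicate 3 or XY replicate 3 and to 1 without XX replicate 1, XX replicate 2 or XY replicate 1, and without XY replicate 3 the median turned to 0.10. Ndufc2 lost its call without XX replicate 2, XX replicate 3 or XY replicate 3.

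Pools of 1 genotype differed widely in members, most of all in XO oocytes. Relative to the XX mean, the median log2 ratio of the 56 tested members was -0.56 in XO replicate 1, 0.85 in replicate 2 and 1.22 in replicate 3, where all genes gave 0.06, 0.32 and 0.49. The XY pools gave -0.29, 0.15 and 0.63, against 0.10, -0.00 and 0.31 over all genes. In XO replicate 3, 34 of the 56 members were at least 2-fold above the XX mean (0.5 added to each level) and 0 were 2-fold below, whereas in XO replicate 1, 22 were at least 2-fold below and 5 above. The highest XO pool was at least 4-fold above the lowest for 31 of 56 members (55.4%, against 31.8% of all genes), compared with 2 members in XX (3.57%, against 4.07%) and 15 in XY oocytes (26.8%, against 11.0%).

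**Figure D4:**
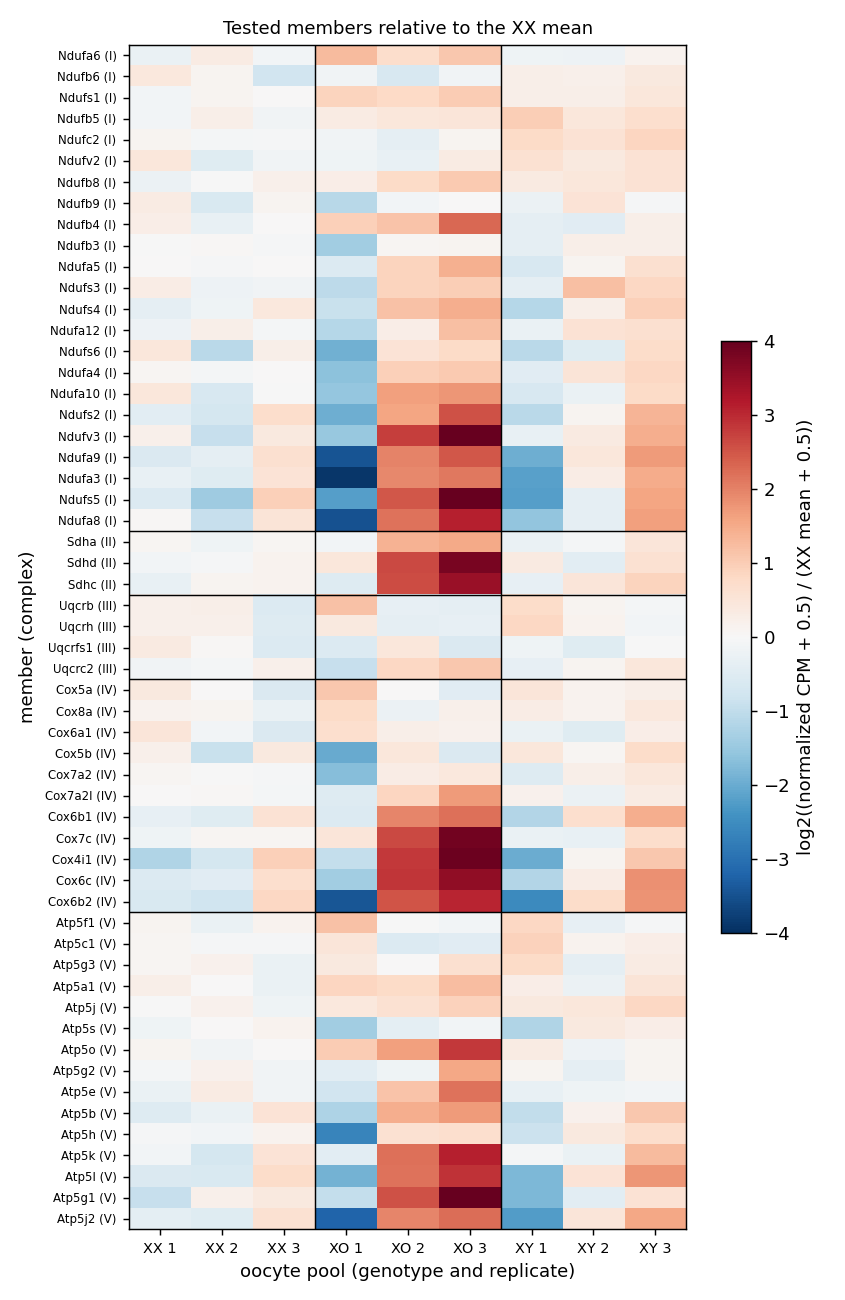
Log2 ratio of each tested member to its XX mean (0.5 added to each level) in the 9 pools, by complex, with rows within a complex ordered by the difference between XO replicates 3 and 1. Red is above and blue below the XX mean, and the colours are capped at 4. XO replicates 2 and 3 are red in most rows and XO replicate 1 is blue in many, with a like but paler contrast between XY replicates 3 and 1.

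Members differed in how the XO pools lay. Among the members with a UMI in both, Cox6b2 differed most between XO replicates 1 and 3, from 2.07 to 226 normalized CPM, 109.3-fold. Ndufa9, at 59.5, 69.3 and 141 normalized CPM in XX replicates 1 to 3, 7.77, 357 and 504 in XO and 22.8, 124 and 297 in XY, differed 64.9-fold between those XO pools and 13.0-fold between XY replicates 1 and 3. Atp5j2 and Atp5l, both of the membrane part of ATP synthase, differed 44.7-fold and 28.9-fold between XO replicates 1 and 3. By contrast Uqcrb, Cox5a, Atp5f1, Atp5c1 and Uqcrh were higher in XO replicate 1 than in XO replicate 3, with ratios of replicate 3 to replicate 1 of 0.346, 0.342, 0.409, 0.522 and 0.610. Uqcrb, for example, was measured at 224, 230.4 and 132 normalized CPM in XX replicates 1 to 3, 442, 154 and 153 in XO and 327, 211 and 184 in XY, so that XO replicate 1 was its highest pool and XY replicate 1 the next. Called oocyte markers lay like Cox6b2, with Padi6 at 212, 7273 and 16520.3 in XO replicates 1 to 3.

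**Figure D5:**
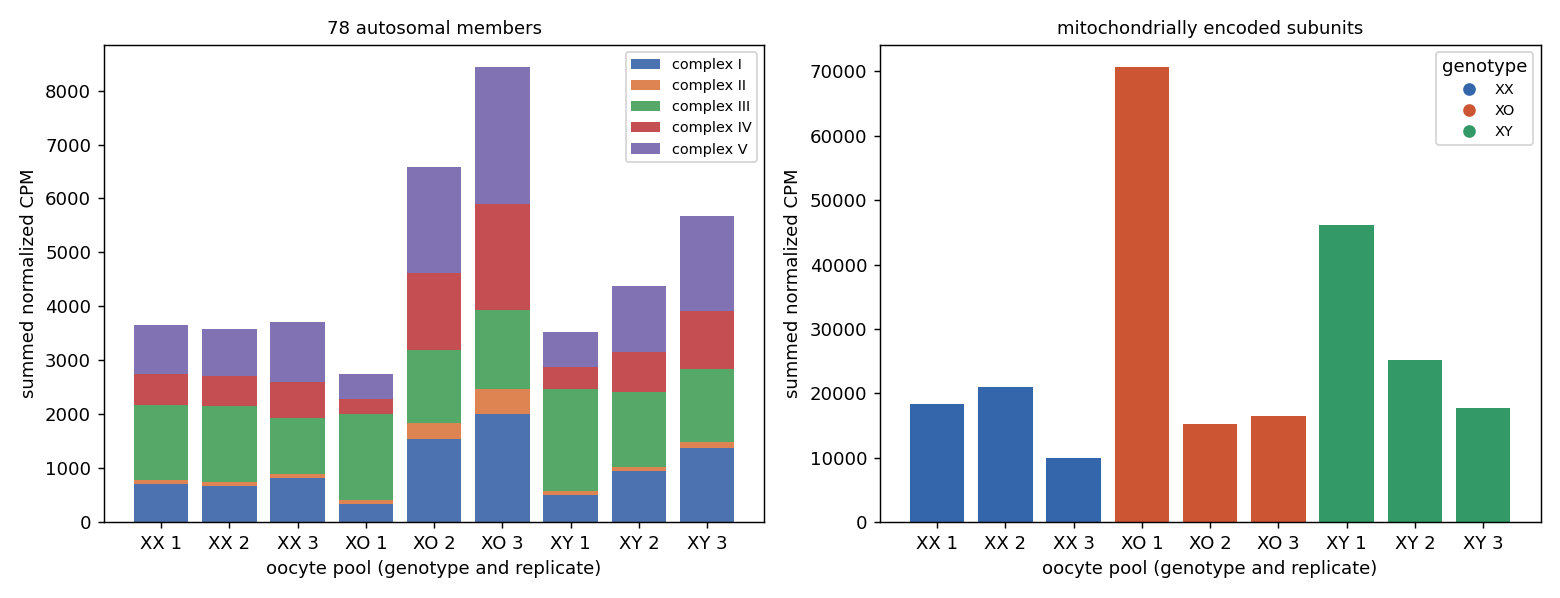
Summed normalized CPM of the 78 autosomal members stacked by complex (left) and of the 13 subunits encoded in the mitochondrial genome (right) in each pool. The nuclear sum is lowest and the mitochondrial sum highest in XO replicate 1, and complex III lies between 1041 and 1900.0.

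The summed level of the members was 3584 to 3710 in XX pools, 2744, 6582 and 8430 in XO replicates 1 to 3, and 3533, 4370 and 5678 in XY replicates 1 to 3. Complex II, with a sum of 69.7 to 80.7 in XX oocytes, reached 72.5, 289.5 and 462 in XO and 66.0, 76.2 and 113.8 in XY oocytes. The sum of complex III, dominated by Uqcrh, was 1900.0, 1401 and 1348 in XY replicates 1 to 3 and lay between 1041 and 1590.0 in the other pools.

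The 13 subunits encoded in the mitochondrial genome, the partners of these proteins, summed to 18379, 21050 and 9971 normalized CPM in XX, 70624, 15280 and 16474 in XO, and 46228, 25262 and 17778 in XY oocytes. Their ratio to the nuclear sum was 2.69 to 5.87 in XX pools, 25.7, 2.32 and 1.95 in XO replicates 1 to 3 and 13.1, 5.78 and 3.13 in XY replicates 1 to 3. XO replicate 1 thus had the lowest nuclear and the highest mitochondrial sum. None of the 13 was called in the 3 comparisons in edgeR at an unadjusted p below 0.05 (2 were in DESeq2, in XX against XO), although all 13 estimates were negative in each, with medians of -1.03 for XX minus XO, -0.84 for XX minus XY and -0.20 for XY minus XO. mt-Co1, the catalytic subunit of complex IV, was measured at 1737, 1706 and 1147 normalized CPM in XX replicates 1 to 3, 6975, 1692 and 1822 in XO and 4517, 2218 and 1621 in XY, with a log2 fold change of -1.19 ± 0.65 between XX and XO.

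Of the 3 X-linked subunits, Ndufa1, an accessory subunit needed to assemble complex I, was measured at 19.6, 16.1 and 19.5 normalized CPM in XX replicates 1 to 3, 18.6, 25.8 and 39.0 in XO and 9.76, 10.4 and 20.5 in XY. It was lower in XY than in XO oocytes (log2 fold change -1.02 ± 0.39 (SE), unadjusted p of 0.0261, adjusted p = 0.485, edgeR). Cox7b had means of 293 ± 32.3 (XX), 238 ± 72.7 (XO) and 291 ± 48.8 (XY), and Ndufb11 52.9 ± 13.0, 33.1 ± 18.1 and 31.6 ± 11.4, with no call in any comparison. Cytochrome c, encoded by Cycs in somatic and by Cyct in testis cells, was at 181 ± 23.0 and 4.40 ± 1.43 in XX oocytes, and neither differed at the threshold. Ndufab1, the acyl carrier subunit of complex I, and Usmg5 of ATP synthase were not called either, at 6.22 ± 3.44 and 41.0 ± 9.74, and Cyc1, cytochrome c1 itself, was below the filter at 1.61 ± 1.26. Atpif1, which inhibits ATP synthase when it runs in reverse, was lower in XX than in XO oocytes, at 2.49 ± 0.662 against 10.2 ± 7.86 (log2 fold change -2.01 ± 0.73 (SE), unadjusted p of 0.0213, adjusted p = 0.224, edgeR).

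Of 54 assembly factors in the matrix 32 were tested, and 3 were lower in XX than in XO oocytes with 0 higher (9.38%, against 16.7% of all genes). These were Ndufaf4 of complex I (-2.07 ± 0.60), Coa7 of complex IV (-3.51 ± 1.17) and Bcs1l, which inserts the Rieske protein into complex III (-2.23 ± 0.94). Ndufaf4 and Coa7 were also lower in XY than in XO oocytes, at -1.91 ± 0.60 and -3.22 ± 1.16, where Ndufaf6 was higher at 0.74 ± 0.32, so that 3 of 32 were called there against 9.93% of all genes. In XX against XY the 1 call was Nubpl, which delivers iron-sulfur clusters to complex I, lower in XX at -1.22 ± 0.54, 1 of 32 against 4.39% of all genes called lower. Of 20 regulators of mitochondrial biogenesis, 16 were tested, and 1, the mitochondrial DNA helicase Twnk, was lower in XX (-1.86 ± 0.76) and in XY (-2.77 ± 0.81) than in XO oocytes, which is 6.25% of the 16 against 16.7% and 8.24% of all genes. The factors whose letters were counted in the promoters, Nrf1, Gabpa and Yy1, averaged 17.6 ± 1.73, 11.6 ± 0.834 and 15.2 ± 3.97 in XX oocytes and were not called in any comparison.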

How the data were processed

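The 9 libraries were grouped by the genotype in the sample labels, 3 per genotype, and the XO column without a number was taken as XO replicate 1. The authors aligned stranded paired-end Smart-seq3 reads with Hisat2 to GRCm38 and a Gencode transcriptome, and deposited counts of UMIs from 5′ exons, 1 value per gene and sample. The treatment of reads with several matches and the release are not given in the sources used here. Pseudogenes named for members with the suffix -ps held 53 UMIs at most, and copies under other names were not searched. In Gencode vM21, 5 of 78 members share an exon with a gene on the same strand. The second deposited table is a signal, called normalized CPM, and was checked to equal the counts times 1 constant per sample built from the total and the ERCC spike-in TMM factor (largest relative difference 7.8e-16). The third holds log2 values of this signal with batch effects regressed out by the authors (sva and cleaningY), and was used as an alternative.

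Counts were tested with edgeR 4.0.16 (quasi-likelihood F test, two-sided, R 4.3.3) in 1 fit of all 9 samples with the ERCC factors and filterByExpr, which kept 10993 genes, 56 of them members. A call is an unadjusted p below 0.05, the study's threshold, and adjusted values are Benjamini-Hochberg over all genes tested. The pools are biological triplicates with no animal named, so p-values measure the spread between pools (common dispersion 0.201). Alternatives used limma 3.58.1, DESeq2 1.42.0 and sva 3.50.0, other scalings, no filter, the replicate number as a block, and leaving out 1 sample. Samples with the same number deviated together for XO and XY (r = 0.80, 0.27 and 0.76), not for all numbers of XX and XO (0.43, -0.41 and 0.65) or XX and XY (0.40, -0.06 and 0.70), and only the data tie them. The code was tested on simulated counts. Log2 ratios by sample used a pseudocount of 0.5. Floors (3 UMIs) cover counting error only. The text names members called in any comparison, the 2 highest and the lowest tested of each complex, isoforms, the Sdh genes, the 3 extremes per comparison, and the called genes of further lists except the granulosa markers. Genes with a steep or opposite course across the XO pools, and Uqcrc1, Ndufs7 and Atp5b, were named after their values were seen. The members and lists were chosen with earlier results of these data known.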

Additional observations from a re-analysis of the deposited data

How the results depend on the processing

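The number of members called in XX against XO, 16 in the fit reported, was 10 with TMM factors of the genes, 0 with scaling to the summed spike-ins, 35 of 78 without the count filter and 33 in limma on the batch-regressed values, and with sva covariates 21 (18 lower and 3 higher in XX). Of all genes, 6.02% were lower and 5.9% higher in XX with TMM factors, and 7.78% and 36.3% in the batch-regressed values. Where no share of all genes is given here or above, a count cannot be told from a shift of all genes. In XX against XY, 2 became 1 with TMM factors, 0 with scaling to the summed spike-ins, 0 with DESeq2's median-of-ratios factors, 0 without the filter and 10 with sva covariates. In XY against XO, 15 became 4 with scaling to the summed spike-ins, 28 without the filter, 23 with sva covariates (13 lower and 10 higher in XY), 35 in limma on the batch-regressed values and 7 with only the 6 samples compared. Leaving out 1 sample gave 8 to 35, 0 to 3 and 6 to 33 calls, with medians from -1.02 to -0.58 for XX minus XO, -0.40 to 0.10 for XX minus XY and -1.03 to -0.31 for XY minus XO. The median of the members, -0.85 for XX minus XO, was 0.015 with scaling to the summed spike-ins (all genes 0.42) and 0.46 in the batch-regressed values (all genes 0.28). For XX minus XY it was 0.34 with the summed spike-ins (all genes 0.49), and for XY minus XO -0.036 with sva covariates (all genes -0.16) and 0.53 in the batch-regressed values (all genes 0.32). Single members changed direction in the batch-regressed values for XX minus XO, with Ndufv3 at 0.13, Ndufs5 at 0.54, Sdha at 0.061, Cox6c at 0.24 and Atp5j at 0.0017, and for XY minus XO with Ndufv3 at 0.64 and Atp5k at 0.073. Ndufs5 was 0.75 for XX minus XO with sva covariates, and Atp5j 0.14 with the summed spike-ins. The cause of these shifts was not tested. With the replicate number as a block the calls were 18 for XX against XO, 2 for XX against XY and 18 for XY against XO. The block changed the call of 0 of the 33 member calls, and only the data tie samples with the same number. DESeq2 with the authors' scaling kept all 33 calls, TMM factors 18. Levels near the floor of 0.335 (XX), 0.532 (XO) and 0.351 (XY) normalized CPM are not resolved at this depth.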
